A study of Danio rerio with 4 samples.

Results

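The genes described here are those that differed between zebrafish retina collected 4 days after a needle-poke injury (4 days post-injury, 4 dpi) and uninjured retina. They are all 1466 rows, 1 per gene, of the authors' filtered tables for this comparison, out of 1885 genes that carry a value in any of the tables of the series read here. RNA-seq was performed on total RNA of whole retinae, with 1 library per condition and 4 libraries in the series. The injured library at 4 dpi and the uninjured library both came from wild type zebrafish 10 months of age, and no agent was given to either. The other libraries were from 12 hr post-injury (12 hpi), which is used in a late passage, and from injured fish kept in cyclopamine until 4 dpi, which is not analysed here. How many fish were pooled for a library is not given in the sources used here. With 1 library per condition the differences have no replicate check, so all values stand without an error and without a test.

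In the zebrafish retina, a mechanical injury causes Müller glia, the radial support cells that span the retinal layers, to dedifferentiate, re-enter the cell cycle and produce progenitors that replace lost neurons. The days around this time point are the proliferative phase of that response, when many of these progenitors divide. Resident microglia and invading leukocytes clear debris over the same period. The comparison asks which transcripts of the whole tissue were more or less abundant in that phase.

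Of the 1466 listed genes, 893 were higher at 4 dpi, which is 60.9% of those listed, and 573 were lower, which is 39.1%. Of 29201 gene names in the annotation used for group sizes, 806 matched a higher gene and 519 a lower one. These are the shares to set beside counts given out of the annotated members of a group. Values were fragments mapped to a transcript, scaled by its length and by the size of the library (FPKM). How that size was set is not given in the sources used here. Ratios were taken as log2 of the 4 dpi value over the uninjured value after 0.1 FPKM was added to each. The authors had selected the tables on this same contrast, so that direction and a minimum size of difference came with the listing: the smallest log2 ratio was 1.39 among higher genes, for *sf3b3*, and -1.35 among lower genes, for *slc4a4a*. On the deposited scale the 2 sides were unequal in size as well as in number. The difference in size depends on how the libraries were scaled, and its order turned under a rescaling described below. Among the 780 higher genes above 0 in both libraries the median log2 ratio was 2.52, and 265 of them, 18.1% of all listed genes, had a log2 ratio of at least 3, which is 8-fold. Among the 558 lower genes above 0 in both libraries the median was -1.92, and 33, or 2.25% of all listed genes, reached a log2 ratio of -3 or below. Higher genes had a median of 16.2 FPKM at 4 dpi, against 2.19 FPKM in uninjured retina, and 301 of them were under 1 FPKM in uninjured retina. Lower genes had a median of 5.86 FPKM at 4 dpi, against 24.4 FPKM in uninjured retina. In tissue RNA of this kind, fewer cells of a type and less RNA per cell cannot be told apart.

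**Figure D1:**
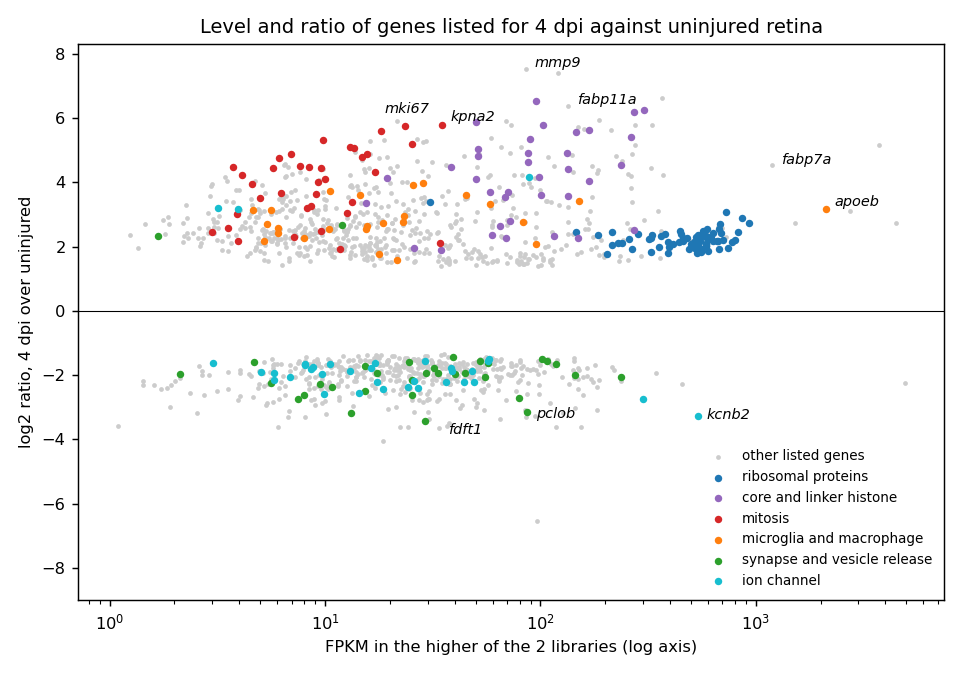
The 1338 listed genes above 0 in both libraries, with the FPKM of the higher library on the horizontal log axis and the log2 ratio of 4 dpi over uninjured on the vertical axis; each point is 1 gene and 6 gene groups are coloured. Ribosomal protein genes sit at high level with log2 ratios from 1.77 to 3.39, mitosis genes at low level with log2 ratios up to 5.79, and nearly all synapse and ion channel genes lie below 0.

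Ranked by level, the higher genes were led by small non-coding RNAs, lipid carriers and ribosomal proteins. A row annotated Metazoa_SRP, the RNA of the signal recognition particle, had 4487 FPKM at 4 dpi, against 678 FPKM in uninjured retina. The U3 small nucleolar RNA had 2735 FPKM at 4 dpi, against 317 FPKM in uninjured retina. The most abundant messenger RNA was that of *apoeb*, an apolipoprotein E made by glia and phagocytes, with 2111 FPKM at 4 dpi, against 234 FPKM in uninjured retina. Next among named genes came *fabp7a*, a brain-type fatty acid binding protein of radial glia, with 1191 FPKM at 4 dpi, against 52 FPKM in uninjured retina. Ribosomal proteins filled 41 of the first 50 places by level and 65 of the first 100. Outside the ribosome, *actb1*, a cytoplasmic beta actin, had 665 FPKM at 4 dpi, against 109 FPKM in uninjured retina, and the prolyl isomerase *ppiaa* had 695 FPKM at 4 dpi, against 117 FPKM in uninjured retina.

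Genes for cytosolic ribosomal proteins formed the most complete group. Of 86 annotated members, 73 were listed and all of these were higher at 4 dpi, with a median log2 ratio of 2.21, against 2.52 over all higher genes. The group was narrow in ratio and wide in level. The strongest was *rps2*, a small subunit protein, with 930.5 FPKM at 4 dpi, against 139 FPKM in uninjured retina. Close to it stood *rps20* with 864 FPKM at 4 dpi, against 118 FPKM in uninjured retina. The weakest was *rps27.2* with 30.6 FPKM at 4 dpi, against 2.83 FPKM in uninjured retina, which also had the largest log2 ratio of the group, 3.39. At the other end *rpl14* had the smallest log2 ratio, 1.77, from 204 FPKM at 4 dpi, against 59.7 FPKM in uninjured retina. Summed over the 73 genes, ribosomal protein transcripts came to 36954 FPKM at 4 dpi, against 8001 FPKM in uninjured retina. How the libraries were scaled to each other is not given in the sources used here, and the part of this group in the values of other genes was not tested.

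Other parts of the protein synthesis machinery were listed on the same side but with few members. Of 89 annotated translation factors 8 were higher and 1 was lower. The elongation factor subunit *eef1g* had 365 FPKM at 4 dpi, against 65.6 FPKM in uninjured retina, and the initiation factor subunit *eif3ha* had 41.6 FPKM at 4 dpi, against 7.83 FPKM in uninjured retina. The exception was a row annotated *EIF4G1*, the scaffold of the cap-binding complex, with 2.49 FPKM at 4 dpi, against 16 FPKM in uninjured retina. Among 63 annotated genes of nucleolus and ribosome assembly only 3 were listed, all higher, of which *nop56*, a core protein of box C/D particles, had 50.4 FPKM at 4 dpi, against 18.7 FPKM in uninjured retina. Chaperones gave 9 higher and 1 lower of 88, including 4 subunits of the cytosolic chaperonin, *cct3*, *cct4*, *cct8* and *tcp1*, which folds actin and tubulin. Of these *cct8* had 113 FPKM at 4 dpi, against 41.5 FPKM in uninjured retina. RNA processing genes gave 11 higher and 1 lower of 158, with *ybx1*, an mRNA-packaging protein, at 235 FPKM at 4 dpi, against 72.8 FPKM in uninjured retina. Proteasome genes gave 4 higher of 60, and the largest log2 ratios were those of *psme1*, an activator induced by interferon, at 3.04, and of a row annotated *PSMB10*, an immunoproteasome subunit, at 2.81.

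Ranked by ratio, the higher genes had a different make-up. None of the first 100 was a ribosomal protein, whereas 17 were annotated histones, 18 were mitosis genes and 4 were DNA replication genes. The largest log2 ratio of all, 7.53, belonged to *mmp9*, a secreted gelatinase that degrades basement membrane, with 85.7 FPKM at 4 dpi, against 0.363 FPKM in uninjured retina. The gene lies on chromosome 8, from 24260272 to 24274708 in the GRCz10 build used for the deposited tables. The next gene with a name of its own was *fabp11a*, a fatty acid binding protein, at 6.37 on the log2 scale, from 135 FPKM at 4 dpi, against 1.54 FPKM in uninjured retina. Also among the first 15 were the lens crystallin *crygs2*, with 69.2 FPKM at 4 dpi, against 1.07 FPKM in uninjured retina, and *kpna2*, an importin alpha that carries spindle and nuclear proteins, with 34.8 FPKM at 4 dpi, against 0.53 FPKM in uninjured retina. A further 113 higher genes were listed at 0 in uninjured retina and have no ratio, among which the highest at 4 dpi was a histone H4 row annotated *HIST1H4D*, with 139.9 FPKM.

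Histones, the proteins that package newly replicated DNA, were among the groups with the largest ratios. This group was gathered after values were seen, and 37 of its 54 members were listed. The 54 are genes matched by symbol plus the listed rows found by their annotation. Unlisted histones without such a symbol could not be counted, so this share cannot be set beside that over all gene names. All 37 rows that the tables annotate as core or linker histones were higher. Their median log2 ratio was 4.16 over those above 0 in both libraries, and 27 of them had a log2 ratio of at least 3. They summed to 4104 FPKM at 4 dpi, against 278 FPKM in uninjured retina. The H2A row *si:ch211-113a14.16* had 95 FPKM at 4 dpi, against 0.92 FPKM in uninjured retina. An H2B row annotated *HIST1H2BA* on chromosome 25 had 304 FPKM at 4 dpi, against 3.87 FPKM in uninjured retina. The variant *h2afx*, which marks broken DNA when phosphorylated, had 135 FPKM at 4 dpi, against 6.31 FPKM in uninjured retina. The replacement variant *h3f3a*, which is not tied to replication, had 272 FPKM at 4 dpi, against 48 FPKM in uninjured retina. Its log2 ratio of 2.5 was below that of *h2afx*, but some core histone rows were lower still, such as the H4 row annotated *HIST1H4I* at 2.28. Of the 37 rows, 32 lay in 4 clusters, on chromosome 7 (6216346 to 6332794 and 73595913 to 73636124) and chromosome 25 (34542495 to 34649027 and 35787200 to 35797781). Inside the same clusters were 28 further rows of under 1500 bases with no histone annotation in the tables, of which 27 were higher and 1 was lower. Histone genes are near-identical copies, and how the counting divided reads between them is not given in the sources used here, so that the value of a single copy is uncertain while the direction was the same in each annotated row.

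Genes of DNA replication were higher without exception among those listed. Of 51 annotated members 15 were higher and 0 lower, with a median log2 ratio of 3.03. The helicase subunit *mcm2* had 16.2 FPKM at 4 dpi, against 0.323 FPKM in uninjured retina. Its partners in the same hexamer, *mcm4* and *mcm5*, had 15.1 and 16.1 FPKM at 4 dpi, against 0.618 and 0.448 FPKM in uninjured retina. The sliding clamp *pcna*, the usual marker of proliferating cells in this tissue, was the most abundant with 113 FPKM at 4 dpi, against 20.6 FPKM in uninjured retina. Its log2 ratio of 2.45 was among the smaller ones of the group, whereas *top2a*, the topoisomerase that separates replicated chromosomes, reached 5.33 from 26.8 FPKM at 4 dpi, against 0.567 FPKM in uninjured retina. Enzymes of nucleotide supply gave 8 higher and 1 lower of 28, and summed to 180.2 FPKM at 4 dpi, against 257 FPKM in uninjured retina. The lower one, *impdh1a*, was also the most abundant, with 52.9 FPKM at 4 dpi, against 238 FPKM in uninjured retina. The large subunit of ribonucleotide reductase, *rrm1*, had 26.1 FPKM at 4 dpi, against 2.95 FPKM in uninjured retina, and the small subunit *rrm2* was listed as 2 separate genes with log2 ratios of 5.30 and 4.93.

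Mitosis genes were the group with the largest number of members at a log2 ratio of at least 3. Of 90 annotated members 37 were higher, 0 were lower, and 29 had a log2 ratio of at least 3, with a median of 4.16. The proliferation antigen *mki67* had 23.6 FPKM at 4 dpi, against 0.339 FPKM in uninjured retina. For *ccnb1*, the cyclin that drives entry into mitosis, the values were 18.2 FPKM at 4 dpi and 0.277 FPKM in uninjured retina. The spindle assembly factor *tpx2* had 25.4 FPKM at 4 dpi, against 0.601 FPKM in uninjured retina. In uninjured retina nearly every one of these genes was low: the median was 0.433 FPKM and the highest value was that of the lamin *lmnb2* at 7.77 FPKM. Levels at 4 dpi stayed modest, with a median of 9.12 FPKM. Condensin subunits, which compact chromosomes, were represented by *smc2*, *smc4*, *ncapd3*, *ncapg2* and *ncaph*, of which *smc2* had 13 FPKM at 4 dpi, against 0.282 FPKM in uninjured retina. Motor proteins of the spindle were represented by *kif4*, *kif11*, *kif15*, *kif20ba*, *kif22*, *kif2c* and *kifc1*, of which *kifc1* was the most abundant with 17 FPKM at 4 dpi, against 0.764 FPKM in uninjured retina.

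Regulators of the step from G1 into S phase were also higher in each listed case, 12 of 36 annotated. The D-type cyclin *ccnd1* had 57.4 FPKM at 4 dpi, against 3.09 FPKM in uninjured retina. The Myc family gene *mych* had 20.7 FPKM at 4 dpi, against 0.95 FPKM in uninjured retina, and *myclb* had 30.1 FPKM at 4 dpi, against 6.22 FPKM in uninjured retina. Activators and brakes stood side by side in this list: the transcription factor *mybl2b* had 6.52 FPKM at 4 dpi, against 0.178 FPKM in uninjured retina, and the retinoblastoma gene *rb1* had 6.05 FPKM at 4 dpi, against 1.25 FPKM in uninjured retina. Of 37 annotated DNA repair genes 4 were listed, all higher, beside 806 higher of all 29201 gene names. The gene *slbp*, placed in that list although it binds histone mRNA, had 19.2 FPKM at 4 dpi, against 4.56 FPKM in uninjured retina.

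Chromatin genes were divided. Of 44 annotated members 20 were higher and 3 were lower. The nucleosome binding protein *hmgn2* had 349.9 FPKM at 4 dpi, against 40.8 FPKM in uninjured retina. The maintenance DNA methyltransferase *dnmt1* had 12 FPKM at 4 dpi, against 2.76 FPKM in uninjured retina, and its partner *uhrf1*, which reads hemimethylated DNA, had 6.98 FPKM at 4 dpi, against 0.448 FPKM in uninjured retina. The duplicated genes *hmga1a* and *hmga1b*, which encode architectural proteins of the same family, went opposite ways: *hmga1a* had 243 FPKM at 4 dpi, against 52.8 FPKM in uninjured retina, while *hmga1b* had 19.4 FPKM at 4 dpi, against 59.8 FPKM in uninjured retina. Histone deacetylases also split, since *hdac1*, the class I enzyme of dividing cells, had 83.1 FPKM at 4 dpi, against 30.4 FPKM in uninjured retina, whereas the class II enzymes *hdac5* and *hdac9b* had 15.3 and 39.4 FPKM at 4 dpi, against 50 and 171 FPKM in uninjured retina. A wider family of transcription coactivators and histone modifiers, gathered after values were seen, gave 17 lower and 1 higher of 89 annotated, the single higher one being *hdac1*. This balance depends on which genes were placed in the family. The histone methyltransferase *setd8b*, counted only with the chromatin genes, was higher, with 6.71 FPKM at 4 dpi, against 0.21 FPKM in uninjured retina. The histone methyltransferase *ash1l* had 12.6 FPKM at 4 dpi, against 45.6 FPKM in uninjured retina, and the acetyltransferase *crebbpa* had 3.46 FPKM at 4 dpi, against 11 FPKM in uninjured retina.

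Markers of Müller glia that were listed were higher, 6 of 17 annotated. The intermediate filament *gfap*, a sign of glial reactivity, had 84.5 FPKM at 4 dpi, against 10.2 FPKM in uninjured retina. A second intermediate filament, *vim*, had 95.6 FPKM at 4 dpi, against 15.7 FPKM in uninjured retina. The calcium binding protein *icn* had 303 FPKM at 4 dpi, against 42.3 FPKM in uninjured retina; it is also a gene of surface epithelium. None of the group was lower, and 6 of the 9 markers taken as defining this cell type, among them those of its glutamate metabolism and retinoid handling, were in neither table. Small lipid and retinoid carriers, a family gathered after values were seen, were higher in all 8 listed cases of 48. Next to *apoeb*, *fabp7a* and *fabp11a* these included *apoc1*, an exchangeable apolipoprotein, with 266 FPKM at 4 dpi, against 25.8 FPKM in uninjured retina, and the retinoic acid binding proteins *crabp1a* and *crabp2a*, with 86.8 and 15.3 FPKM at 4 dpi, against 31.1 and 0.898 FPKM in uninjured retina.

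**Figure D2:**
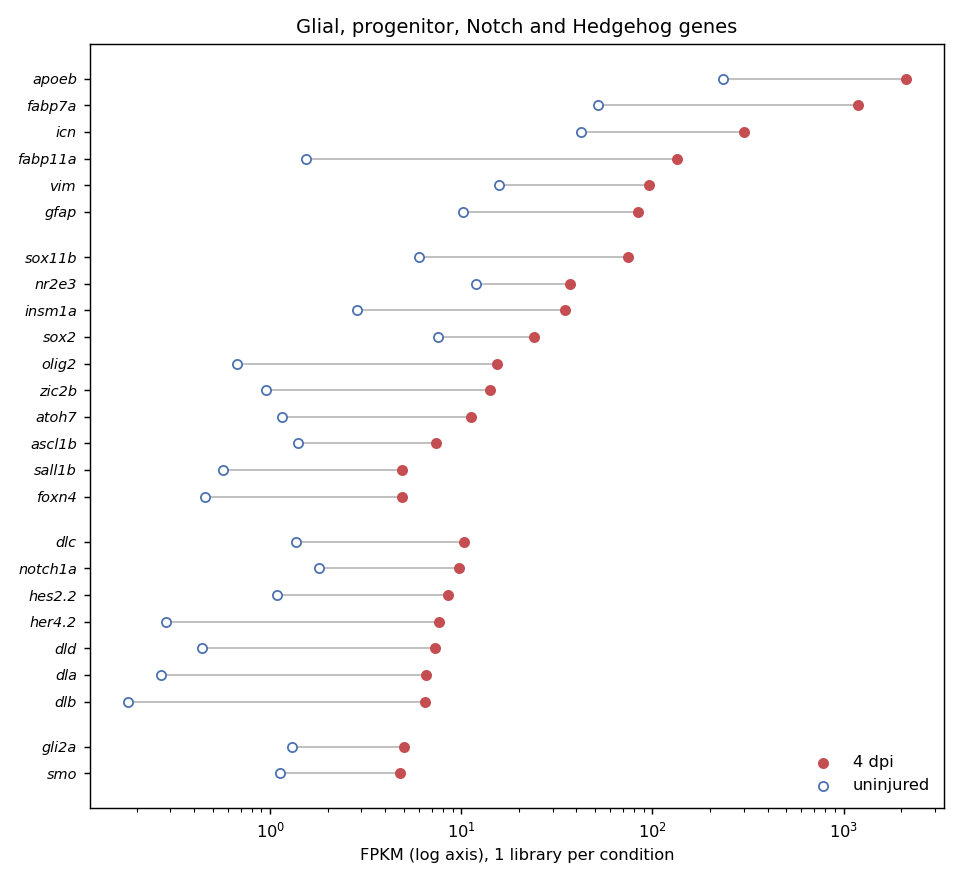
FPKM at 4 dpi (filled) and in uninjured retina (open) for the reported Müller glia markers, retinal progenitor transcription factors, Notch pathway genes and Hedgehog pathway genes, from top to bottom, on a log axis with 1 library per condition; *zic2b* stands with the transcription factors, and *sox21b*, listed at 0 in uninjured retina, is not drawn. Every filled point lies to the right of its open point, by the least for *nr2e3* and *sox2* and by the most for *fabp11a*.

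Transcription factors of retinal progenitors came to 12 higher and 0 lower of 42 annotated, with a median log2 ratio of 3.17. The most abundant was *sox11b*, an SRY-box factor of newborn neurons, with 74.1 FPKM at 4 dpi, against 6.0 FPKM in uninjured retina. The largest log2 ratio was that of *olig2*, a helix-loop-helix factor of neural progenitors, at 4.33 from 15.4 FPKM at 4 dpi, against 0.671 FPKM in uninjured retina. Genes of the first committed retinal neurons were present: *atoh7*, required for ganglion cells, had 11.3 FPKM at 4 dpi, against 1.15 FPKM in uninjured retina, and *foxn4*, required for amacrine and horizontal cells, had 4.87 FPKM at 4 dpi, against 0.453 FPKM in uninjured retina. The zinc finger repressor *insm1a* had 35 FPKM at 4 dpi, against 2.83 FPKM in uninjured retina. Among the smaller ratios was that of *sox2*, found in progenitors and Müller glia, which had 23.9 FPKM at 4 dpi, against 7.54 FPKM in uninjured retina. The proneural gene *ascl1b* had 7.35 FPKM at 4 dpi, against 1.39 FPKM in uninjured retina, while its paralog *ascl1a* was in neither table.

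Notch signalling genes were higher in all 7 listed cases of 38, ligands, receptor and targets alike. Among the Delta ligands, *dla* had 6.51 FPKM at 4 dpi, against 0.269 FPKM in uninjured retina. The ligand *dlb* had 6.45 FPKM at 4 dpi, against 0.181 FPKM in uninjured retina, *dlc* had 10.3 FPKM at 4 dpi, against 1.36 FPKM in uninjured retina, and *dld* had 7.26 FPKM at 4 dpi, against 0.439 FPKM in uninjured retina. The receptor *notch1a* had the smallest log2 ratio of the group, 2.37, from 9.7 FPKM at 4 dpi, against 1.8 FPKM in uninjured retina. Of the target repressors, *her4.2* had 7.62 FPKM at 4 dpi, against 0.286 FPKM in uninjured retina, and *hes2.2* had 8.48 FPKM at 4 dpi, against 1.09 FPKM in uninjured retina. All of these were under 2 FPKM in uninjured retina and between 6.45 and 10.3 FPKM at 4 dpi.

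Of 16 annotated Hedgehog pathway genes 3 were listed, all higher. The signal transducer *smo*, the membrane protein that cyclopamine blocks, had 4.78 FPKM at 4 dpi, against 1.13 FPKM in uninjured retina. The transcription factor *gli2a* had 5.01 FPKM at 4 dpi, against 1.3 FPKM in uninjured retina, and the zinc finger factor *zic2b*, which is related to the Gli proteins, had 14.2 FPKM at 4 dpi, against 0.947 FPKM in uninjured retina. Of 21 Hedgehog, Notch and reprogramming genes looked up by name, 9 were among the higher genes and none among the lower genes. Over all 29201 gene names, 806 were higher and 519 lower. The study itself reports *mmp9*, *zic2b* and *foxn4* from this RNA-seq, so their listing is not independent of their choice. The other 12 were in neither table, among these *shha*, *shhb*, *ptch1*, *gli1*, *gli3*, *ascl1a*, *lin28a* and *her4.1*. A gene in neither table has no value here, and nothing follows about its level. Other growth factor pathways gave 5 higher of 220, close to the share over all gene names, 806 of 29201. The Wnt receptor *fzd5* had 40.7 FPKM at 4 dpi, against 4.94 FPKM in uninjured retina, and the growth factor *hbegfa*, a ligand of the EGF receptor, had 4.23 FPKM at 4 dpi, against 0.621 FPKM in uninjured retina.

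Early injury factors and the Jak-Stat pathway, through which cytokines act on Müller glia, gave 14 higher and 2 lower of 42 annotated. The AP-1 subunit *jun* had 90.9 FPKM at 4 dpi, against 6.21 FPKM in uninjured retina. The stress factor *atf3* had 26.6 FPKM at 4 dpi, against 0.952 FPKM in uninjured retina, and the feedback inhibitor *socs3b* had 28.8 FPKM at 4 dpi, against 2.39 FPKM in uninjured retina. The 2 lower genes were *egr1*, an immediate early gene driven by neuronal activity, with 7.68 FPKM at 4 dpi, against 37.8 FPKM in uninjured retina, and *klf9*, a glucocorticoid responsive factor, with 3.88 FPKM at 4 dpi, against 14.9 FPKM in uninjured retina. A second activity-dependent gene, *npas4a*, was low in both libraries, with 0.61 FPKM at 4 dpi, against 5.3 FPKM in uninjured retina. Components that receive these signals were listed too: *crlf1a*, a soluble cytokine receptor chain of the CNTF family, had 29.3 FPKM at 4 dpi, against 0.659 FPKM in uninjured retina, and the leptin receptor *lepr* had 16 FPKM at 4 dpi, against 0.642 FPKM in uninjured retina. Thiol and peroxide enzymes, gathered after values were seen, gave 6 higher and none lower of 64, with the largest log2 ratio, 4.22, for thioredoxin *txn*, from 82.1 FPKM at 4 dpi, against 4.31 FPKM in uninjured retina. The most abundant was the peroxiredoxin *prdx2*, with 155 FPKM at 4 dpi, against 43.4 FPKM in uninjured retina.

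Genes of microglia and macrophages were higher in all 25 listed cases of 79, and 7 of the 10 markers taken as defining these cells were among them. The myeloid transcription factor *spi1b* had 15.6 FPKM at 4 dpi, against 2.39 FPKM in uninjured retina. The pore-forming protein *mpeg1.1* had 18.5 FPKM at 4 dpi, against 2.71 FPKM in uninjured retina, and the growth factor receptor *csf1ra* had 17.8 FPKM at 4 dpi, against 5.1 FPKM in uninjured retina. The complement component *c1qc*, made by phagocytes, had the largest log2 ratio of the list, 3.99, from 28.4 FPKM at 4 dpi, against 1.69 FPKM in uninjured retina. Fc receptor gamma chain *fcer1gl* had 58.3 FPKM at 4 dpi, against 5.81 FPKM in uninjured retina, and the secreted glycoprotein *lgals3bpb* had 151 FPKM at 4 dpi, against 13.9 FPKM in uninjured retina. Apart from *apoeb*, which glia share, the list ran between 4.63 and 151 FPKM at 4 dpi. Neutrophil genes gave 3 higher of 9, beside 806 higher of all 29201 gene names. These were *mmp9*, counted also with the proteases, *lect2l*, listed at 0 in uninjured retina, and the granulocyte receptor *csf3r*. The last had 16.9 FPKM at 4 dpi, against 1.1 FPKM in uninjured retina. Both markers taken as defining neutrophils were in neither table.

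Interferon response genes were higher in all 24 listed cases of 92, with a median log2 ratio of 2.76. The ubiquitin-like modifier *isg15* had 88.5 FPKM at 4 dpi, against 5.49 FPKM in uninjured retina. The antiviral GTPases *mxa*, *mxb* and *mxe* had 17.6, 30.2 and 14.7 FPKM at 4 dpi, against 2.25, 1.56 and 1.35 FPKM in uninjured retina. The most abundant members at 4 dpi were a pair of antigen presentation genes: the invariant chain *cd74a* had 175 FPKM at 4 dpi, against 35.2 FPKM in uninjured retina, and *b2m*, the light chain of class I molecules, had 134 FPKM at 4 dpi, against 19.7 FPKM in uninjured retina. The peptide transporter of the same process, *tap1*, had 8.06 FPKM at 4 dpi, against 1.97 FPKM in uninjured retina. Chemokines, cytokines and their receptors, gathered after values were seen, gave 21 higher and 1 lower of 176. The chemokine *ccl34b.1* had 82.6 FPKM at 4 dpi, against 12.2 FPKM in uninjured retina, while *ccl34b.8* had 27.2 FPKM at 4 dpi and was listed at 0 in uninjured retina. Receptors included *cxcr4b*, which guides migrating cells, with 14.5 FPKM at 4 dpi, against 1.11 FPKM in uninjured retina, and *ccr9a* with 14.6 FPKM at 4 dpi, against 1.08 FPKM in uninjured retina. The lower row was one annotated *IL1RL1*, with 3.83 FPKM at 4 dpi, against 13 FPKM in uninjured retina. Complement and coagulation genes gave 5 higher of 93, including *c7a* with 28.6 FPKM at 4 dpi, against 2.71 FPKM in uninjured retina.

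Proteases and their inhibitors were higher in all 15 listed cases of 125. Besides *mmp9*, the membrane-anchored *mmp14b* had 21.7 FPKM at 4 dpi, against 0.869 FPKM in uninjured retina, and *mmp2*, which that enzyme activates, had 19.3 FPKM at 4 dpi, against 3.22 FPKM in uninjured retina. The inhibitor *serpinb1*, which protects cells from granule proteases, had 31.4 FPKM at 4 dpi, against 1.18 FPKM in uninjured retina. Lysosomal genes, gathered after values were seen, were higher in all 23 listed cases of 64. Cathepsin D, *ctsd*, was the most abundant with 197 FPKM at 4 dpi, against 57.1 FPKM in uninjured retina. The collagen-degrading cathepsin *ctsk* had the largest log2 ratio, 5.26, from 28.4 FPKM at 4 dpi, against 0.642 FPKM in uninjured retina. The asparaginyl protease *lgmn* had 132 FPKM at 4 dpi, against 32 FPKM in uninjured retina, and the tetraspanin *cd63* of lysosomal membranes had 76.8 FPKM at 4 dpi, against 10.1 FPKM in uninjured retina.

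Matrix and adhesion genes divided by kind. Of 301 annotated members 17 were higher and 6 were lower. All 6 lower ones were cadherins or protocadherins, and all 17 higher ones were collagens, fibronectins, integrins and other matrix proteins. Fibronectin *fn1a* had 20.1 FPKM at 4 dpi, against 0.828 FPKM in uninjured retina. The fibrillar collagen gene *col1a2* had 12.8 FPKM at 4 dpi, against 1.01 FPKM in uninjured retina, and the integrin subunit *itgb1b*, a receptor for both of these ligands, had 37.9 FPKM at 4 dpi, against 5.85 FPKM in uninjured retina. On the lower side *cdh27* had 1.01 FPKM at 4 dpi, against 10.1 FPKM in uninjured retina, and *pcdh15a*, a protocadherin of photoreceptors and hair cells, had 8.28 FPKM at 4 dpi, against 32 FPKM in uninjured retina.

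Cytoskeletal genes gave 30 higher and 4 lower of 189. By level at 4 dpi the first of them was *actb1*, and several tubulins followed. The alpha tubulin *tuba1a*, a gene of growing axons and of dedifferentiating Müller glia, had 263 FPKM at 4 dpi, against 14.2 FPKM in uninjured retina. The beta tubulin *tubb5* had 224 FPKM at 4 dpi, against 7.87 FPKM in uninjured retina. Another alpha tubulin, *tuba8l*, had the largest log2 ratio of the list, 5.09, from 65.3 FPKM at 4 dpi, against 1.82 FPKM in uninjured retina. The membrane-binding annexin *anxa2a* had 108 FPKM at 4 dpi, against 3.85 FPKM in uninjured retina, and the nestin row *NES*, an intermediate filament of progenitors, had 6.47 FPKM at 4 dpi, against 0.448 FPKM in uninjured retina. Genes of axon growth, gathered after values were seen, were higher in all 13 listed cases of 31. Among them the growth cone protein *gap43*, also a ganglion cell marker, had 45.5 FPKM at 4 dpi, against 3.89 FPKM in uninjured retina. The microtubule destabiliser *stmn1a* had 44.1 FPKM at 4 dpi, against 1.47 FPKM in uninjured retina, and *marcksb*, a substrate of protein kinase C at the membrane, had 107 FPKM at 4 dpi, against 9.98 FPKM in uninjured retina. Myelin genes, also gathered after values were seen, were listed for 3 of 12, all higher. Of these *mbpb*, which encodes myelin basic protein, had 43.7 FPKM at 4 dpi, against 10.3 FPKM in uninjured retina. The values for *cnp*, an enzyme of myelin-forming cells, were 60 FPKM at 4 dpi and 8.65 FPKM in uninjured retina.

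Genes of tissues next to the retina were also among the higher ones. Lens genes gave 15 higher and none lower of 82 annotated, and 11 of the 15 were listed at 0 in uninjured retina. The crystallin *crybb3* had 58.8 FPKM at 4 dpi, against 1.34 FPKM in uninjured retina, and *crygm3* had 39.3 FPKM at 4 dpi and was listed at 0 in uninjured retina. Of the 8 markers taken as defining lens, 4 were higher and 4 were in neither table. The lens genes summed to 274 FPKM at 4 dpi, against 5.49 FPKM in uninjured retina. Surface epithelium genes gave 6 higher of 32, among them the keratins *krt8* with 166 FPKM at 4 dpi, against 28.3 FPKM in uninjured retina and *krt18* with 43 FPKM at 4 dpi, against 7.27 FPKM in uninjured retina, which uninjured retina already contained. Vascular genes gave 2 higher and 1 lower of 22. The higher ones were the tight junction genes *cldn5a* and *cldn5b*, which had 14.6 and 13.2 FPKM at 4 dpi, against 1.67 and 0.786 FPKM in uninjured retina. The lower one was *rgs5a*, a gene of pericytes, with 7.8 FPKM at 4 dpi, against 23.3 FPKM in uninjured retina. The markers taken as defining endothelium, skeletal muscle, red blood cells and pigment epithelium were in neither table. The part of lens, epithelial or vascular cells in the other higher genes was not tested.

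**Figure D3:**
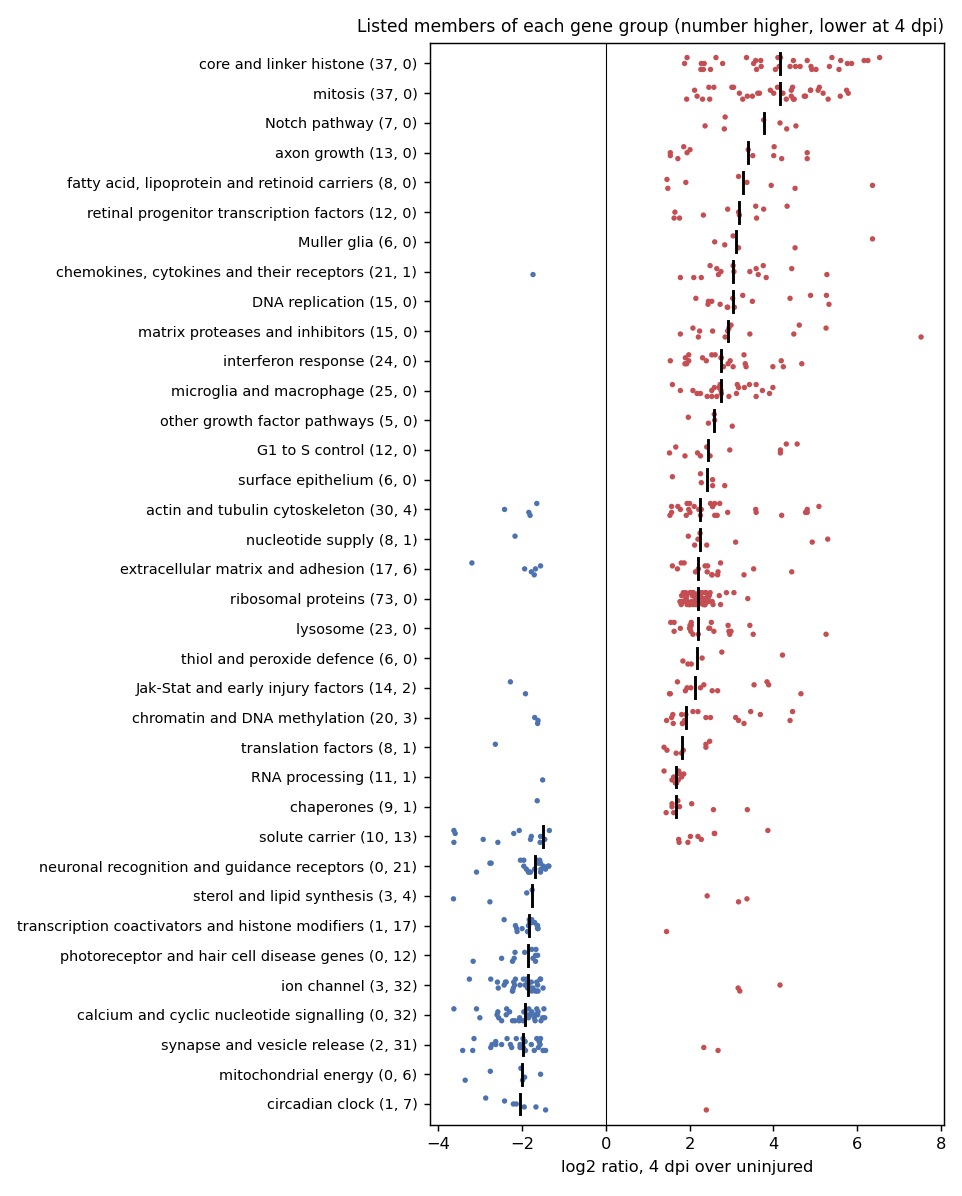
Log2 ratios of 4 dpi over uninjured for the listed members of each gene group with at least 5 members above 0 in both libraries; each point is 1 gene, red where it was higher and blue where it was lower, black bars are group medians, and the numbers in brackets count the higher and the lower genes. Groups separate into a red block and a blue block, and the solute carriers and the sterol and lipid genes hold both colours in similar number. Groups on both sides were gathered after values were seen, so the separation is not independent of the values. Among these are the histone, lysosome and axon growth groups, and those of calcium and cyclic nucleotide signalling, neuronal recognition and transcription coactivators.

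On the lower side, the genes of highest level encoded channels, nuclear receptors, synaptic proteins and enzymes. Leaving aside the U2 small nuclear RNA, which had 1035 FPKM at 4 dpi, against 4937 FPKM in uninjured retina, the first was *kcnb2*, a delayed rectifier potassium channel, with 56.2 FPKM at 4 dpi, against 538 FPKM in uninjured retina. An estrogen-related nuclear receptor, *esrrd*, had 89.3 FPKM at 4 dpi, against 344 FPKM in uninjured retina. The complexin *cplx4b*, a regulator of release at ribbon synapses, had 57.7 FPKM at 4 dpi, against 238 FPKM in uninjured retina, and *impdh1a*, which makes guanine nucleotides in photoreceptors, had 52.9 FPKM at 4 dpi, against 238 FPKM in uninjured retina. Among the 573 lower genes, 46 had 100 FPKM or more in uninjured retina, and the U2 row was the only one at that level at 4 dpi.

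By ratio on the deposited scale, the lower genes covered a shorter range than the higher ones. Rows on unplaced scaffolds without an informative symbol, 2 in number, had the lowest log2 ratios, of -6.54 and -4.05. The lowest of a named gene was -3.64, for *fdft1*, the squalene synthase of the sterol pathway, with 2.62 FPKM at 4 dpi, against 33.8 FPKM in uninjured retina. The sodium-calcium exchanger *slc8a2b* had 1.7 FPKM at 4 dpi, against 22.2 FPKM in uninjured retina, and a row annotated *SLC45A4* had 9.47 FPKM at 4 dpi, against 118 FPKM in uninjured retina. The sulfotransferase *gal3st3* had 0.398 FPKM at 4 dpi, against 6.04 FPKM in uninjured retina, and the organic anion transporter *slco5a2* had 1.91 FPKM at 4 dpi, against 24.3 FPKM in uninjured retina. Transcription factors in this range were *nfatc3a*, a calcineurin target, with 2.97 FPKM at 4 dpi, against 36.7 FPKM in uninjured retina, and *sox6* with 2.84 FPKM at 4 dpi, against 30.4 FPKM in uninjured retina. A further 15 lower genes were listed at 0 at 4 dpi; the named ones among the highest were 2 5S ribosomal RNA rows and the microRNA gene *dre-mir-96*, whose mature product is abundant in mouse photoreceptors, at 22.8 FPKM in uninjured retina.

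Synaptic genes were mostly on the lower side. Of 302 annotated members 31 were lower and 2 were higher, which is 93.9% lower among those listed, beside 39.1% for all listed genes, and their median log2 ratio was -1.97, beside -1.92 for all lower genes. Proteins of the presynaptic active zone were well represented. The scaffold *pclob* had 9.67 FPKM at 4 dpi, against 86.5 FPKM in uninjured retina, and its paralog *pcloa* had 12 FPKM at 4 dpi, against 79.8 FPKM in uninjured retina. The active zone organiser *rims2b* had 36 FPKM at 4 dpi, against 145 FPKM in uninjured retina. On the vesicle itself, *syn2b*, a synapsin that tethers vesicles to actin, had the lowest log2 ratio of the list, -3.42, from 2.62 FPKM at 4 dpi, against 29 FPKM in uninjured retina. The vesicular glutamate transporter *slc17a7a* had 35.8 FPKM at 4 dpi, against 107 FPKM in uninjured retina, and the vesicle protein *sv2a* had 13.3 FPKM at 4 dpi, against 55.1 FPKM in uninjured retina. Postsynaptic receptors were listed for both transmitters: a row annotated *GABRA4*, a GABA-A subunit, had 1.37 FPKM at 4 dpi, against 13.2 FPKM in uninjured retina, and the AMPA receptor subunit *gria4a* had 7.6 FPKM at 4 dpi, against 29.5 FPKM in uninjured retina. The higher members were *vamp5* and *unc13d*, with 12 and 1.68 FPKM at 4 dpi, against 1.79 and 0.252 FPKM in uninjured retina; the second is known for granule release in blood cells of mammals.

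Ion channels showed the same balance, with 32 lower and 3 higher of 290 annotated. Voltage-gated potassium channels were the main family on the lower side: by gene ontology all 9 listed genes with that activity were lower. The A-type channel *kcnd3* had 5.02 FPKM at 4 dpi, against 27 FPKM in uninjured retina. The large-conductance channel *kcnma1a* had 19 FPKM at 4 dpi, against 56.9 FPKM in uninjured retina. A T-type calcium channel, *cacna1g*, had 2.57 FPKM at 4 dpi, against 8.79 FPKM in uninjured retina, and the sodium channel *scn12aa* had 10.6 FPKM at 4 dpi, against 38.9 FPKM in uninjured retina. The cone channel subunit *cngb3* had 10.5 FPKM at 4 dpi, against 49.4 FPKM in uninjured retina, and *trpm1b*, of the family that conducts the light response of ON bipolar cells, had 13.2 FPKM at 4 dpi, against 48.3 FPKM in uninjured retina. The 3 higher channels were not voltage-gated potassium, calcium or sodium channels. These were the mechanically gated *piezo1* with 3.94 FPKM at 4 dpi, against 0.353 FPKM in uninjured retina, the osmosensitive *trpv4* with 3.2 FPKM at 4 dpi, against 0.259 FPKM in uninjured retina, and the anoctamin *ano9a* with 88.5 FPKM at 4 dpi, against 4.84 FPKM in uninjured retina. Relatives of the last 2 were on the lower side. The anoctamin *ano3* had 1.28 FPKM at 4 dpi, against 5.05 FPKM in uninjured retina. The TRP channel *trpm3* had 2.43 FPKM at 4 dpi, against 8.08 FPKM in uninjured retina.

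Calcium and cyclic nucleotide signalling, gathered after values were seen, was lower in all 32 listed cases of 194. By gene ontology, the wider set of genes that bind calcium ions went both ways, with 26 higher and 30 lower. The kinase kinase *camkk1b* had 21.5 FPKM at 4 dpi, against 184 FPKM in uninjured retina. The calcium binding protein *cabp2a*, found in bipolar cells, had 35.3 FPKM at 4 dpi, against 183 FPKM in uninjured retina. Calcium pumps were represented by *atp2b2* of the plasma membrane, with 6.18 FPKM at 4 dpi, against 38 FPKM in uninjured retina, and *atp2a3* of the endoplasmic reticulum, with 15.2 FPKM at 4 dpi, against 63.9 FPKM in uninjured retina. The phosphodiesterase *pde4d* had 24.9 FPKM at 4 dpi, against 97.8 FPKM in uninjured retina. Guanylate cyclase activators of photoreceptors, *guca1d* and *guca1e*, had 48.4 and 13.6 FPKM at 4 dpi, against 165 and 77 FPKM in uninjured retina.

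Genes that define mature retinal cell types were for the most part in neither table. None of the 9 cone, 4 bipolar or 5 amacrine and horizontal cell markers taken as defining was listed, and of 7 rod markers only *nr2e3*, the nuclear receptor of rod precursors, was listed, as higher, with 37.2 FPKM at 4 dpi, against 11.9 FPKM in uninjured retina. Of 6 ganglion cell markers only *gap43* was listed. A group of genes whose loss affects photoreceptors or hair cells, gathered after values were seen, was lower in all 12 listed cases of 40. The photoreceptor gene *nr2e3*, which was higher, was not placed in it, so its single direction depends on which genes were chosen. The polarity gene *crb1* had 17.4 FPKM at 4 dpi, against 55.6 FPKM in uninjured retina. The unconventional myosin *myo3a* had 12.1 FPKM at 4 dpi, against 40.7 FPKM in uninjured retina.

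Surface proteins by which neurons recognise partners, gathered after values were seen, were lower in all 21 listed cases of 135. This single direction depends on which genes were placed in the group. The neuronal adhesion genes *alcamb* and *chl1b*, counted with axon growth, were higher. They had 23.9 and 6.8 FPKM at 4 dpi, against 1.38 and 2.27 FPKM in uninjured retina. The semaphorin *sema7a* had 6.36 FPKM at 4 dpi, against 55 FPKM in uninjured retina. The receptor phosphatase *ptprsa* had 4.4 FPKM at 4 dpi, against 30 FPKM in uninjured retina, and the guidance receptor *robo2* had 9.11 FPKM at 4 dpi, against 25.8 FPKM in uninjured retina. Neurexins, which bridge the synaptic cleft, were counted above with the synaptic genes and not in this group. They were represented by *nrxn1a*, *nrxn2a* and *nrxn2b*, of which *nrxn1a* had 17.7 FPKM at 4 dpi, against 52.3 FPKM in uninjured retina.

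Clock genes gave 7 lower and 1 higher of 38 annotated. The period genes, whose products repress the clock, were lower for all 3 listed: *per2* had 15 FPKM at 4 dpi, against 111 FPKM in uninjured retina, *per3* had 38.1 FPKM at 4 dpi, against 176 FPKM in uninjured retina, and *per1a* had 9.77 FPKM at 4 dpi, against 31.3 FPKM in uninjured retina. The output factor *hlfa* had 42.4 FPKM at 4 dpi, against 187 FPKM in uninjured retina, and the nuclear receptor *nr1d1* had 10.2 FPKM at 4 dpi, against 55 FPKM in uninjured retina. The higher gene was *aanat2*, the enzyme that sets the night-time peak of melatonin synthesis, with 141 FPKM at 4 dpi, against 26.8 FPKM in uninjured retina. The hour of day at which each retina was taken is not given in the sources used here, and injury and hour cannot be told apart.

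Few genes of energy metabolism were listed. Only 6 of 219 annotated mitochondrial energy genes were listed, all lower. Of these, 4 regulate mitochondrial gene expression, namely the nuclear receptors *esrrgb* and *esrrd* and the coactivators *ppargc1a* and *ppargc1b*. The related coactivator *pprc1*, which was not placed in the group, was higher, with 5.1 FPKM at 4 dpi, against 0.805 FPKM in uninjured retina. The receptor *esrrgb* had 6.21 FPKM at 4 dpi, against 64.8 FPKM in uninjured retina, and *ppargc1a* had 3.66 FPKM at 4 dpi, against 25.4 FPKM in uninjured retina. Of 57 annotated genes of glycolysis and creatine 2 were listed, 1 lower and 1 higher, and both were picked after their values were seen. The lower one, *pfkfb4b*, which sets the level of a glycolytic activator, had 17.8 FPKM at 4 dpi, against 145 FPKM in uninjured retina. The higher one, the solute carrier *slc16a9a*, had 13 FPKM at 4 dpi, against 3.81 FPKM in uninjured retina. Sterol and lipid genes divided, with 3 higher and 4 lower of 67. The lower ones were synthetic: besides *fdft1*, the regulator *srebf1* had 16.1 FPKM at 4 dpi, against 54.6 FPKM in uninjured retina, and the sterol oxidase *msmo1* had 3.32 FPKM at 4 dpi, against 12.6 FPKM in uninjured retina. Apolipoproteins made up most of the higher ones, the other being the fatty acid elongase *elovl1b*. That gene is also synthetic, and had 26.1 FPKM at 4 dpi, against 4.80 FPKM in uninjured retina.

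Solute carriers were listed on both sides, 13 lower and 10 higher of 450, beside 519 lower and 806 higher of all 29201 gene names. Among the lower ones the creatine transporter *slc6a8* had 17.1 FPKM at 4 dpi, against 78.8 FPKM in uninjured retina, and the chloride extruder *slc12a5a*, which sets the direction of GABA currents, had 13.7 FPKM at 4 dpi, against 47.9 FPKM in uninjured retina. The higher ones included carriers of amino acids and nucleosides. The heavy chain *slc3a2a* of amino acid exchangers had 17.3 FPKM at 4 dpi, against 4.17 FPKM in uninjured retina, and the nucleoside carrier *slc29a1a* had 14 FPKM at 4 dpi, against 2.23 FPKM in uninjured retina. In gene ontology terms, by which 668 higher and 410 lower genes were annotated, 62.0% of all annotated genes were higher. Beside that share, 24 of 25 genes of the immune response were higher, as were 32 of 37 that bind GTP, whereas 12 of 16 protein serine/threonine kinases and all 10 genes of sodium transport across membranes were lower.

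The listed genes differed by direction in the span of their listed locus. A locus can be longer than its gene: that of the U2 small nuclear RNA ran from 21519256 to 21572102 on chromosome 7. Higher genes spanned a median of 10113 bases from start to end of the locus (lower and upper quartiles 3547 and 26338), and lower genes a median of 47380 bases (15899 and 113653). Of loci over 100 kb, 27 genes were higher and 167 were lower, so that 13.9% were higher, whereas 90.4% of loci under 2 kb were higher. Leaving out ribosomal protein and histone genes, the median over protein-coding genes was 12530 bases for 749 higher ones and 52985 bases for 534 lower ones. The synaptic genes had a median span of 98281 bases, the ion channels 123200 and the neuronal recognition proteins 154244, while mitosis genes had 20880 and ribosomal protein genes 5487. The part of locus span or gene length in the direction of these groups was not tested.

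**Figure D4:**
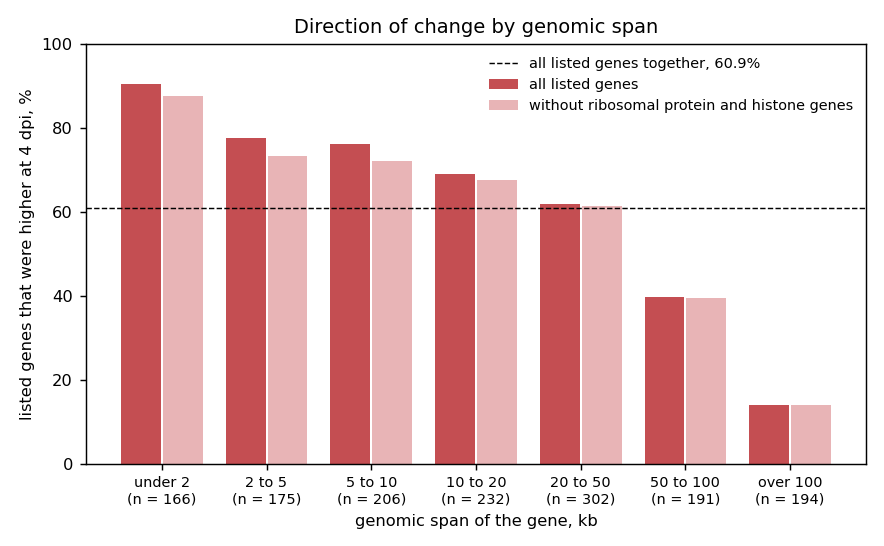
Share of listed genes that were higher at 4 dpi, in percent, by the genomic span of the locus listed for the gene in kb, for all listed genes (dark bars) and without ribosomal protein and histone genes (light bars). The label n counts all listed genes of a bin and the dashed line is the share over all of them, 60.9%. The share is 90.4% in the shortest bin and 13.9% in the longest, and the light bars follow the dark ones.

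Values at 12 hpi can be set beside those at 4 dpi for 94 genes that have 1 annotated transcript and were listed at both times; the 12 hpi tables are by transcript, and for these genes the uninjured value in both sets of tables is the same because both comparisons share that library. Of the 94, 63 were higher at both times, 30 were lower at both times, and 1 was listed in opposite directions. Among the 63, the 4 dpi value was above the 12 hpi value in 33 and below it in 30. The stress factor *atf3* had 0.952 FPKM in uninjured retina, 81.8 FPKM at 12 hpi and 26.6 FPKM at 4 dpi, so the later value was the smaller of those after injury. The growth cone gene *gap43* had 3.89, 36.5 and 45.5 FPKM in uninjured retina, at 12 hpi and at 4 dpi, and *fabp11a* had 1.54, 93.6 and 135 FPKM; both had most of their 4 dpi level at 12 hpi. Later in the series stood *anxa2a* with 3.85, 22.5 and 108 FPKM, *ccl34b.8*, listed at 0 in uninjured retina, with 2.48 and 27.2 FPKM after injury, and *aanat2* with 26.8, 70.8 and 141 FPKM. The lens gene *cryaa*, listed at 0 in uninjured retina, had 50 FPKM at 12 hpi and 11.3 FPKM at 4 dpi. Among lower genes, *esrrd* had 344, 85.6 and 89.3 FPKM, *srebf1* had 54.6, 17.2 and 16.1 FPKM, and *zfhx3* had 11.6, 3.09 and 1.73 FPKM, in the same order of libraries.

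**Figure D5:**
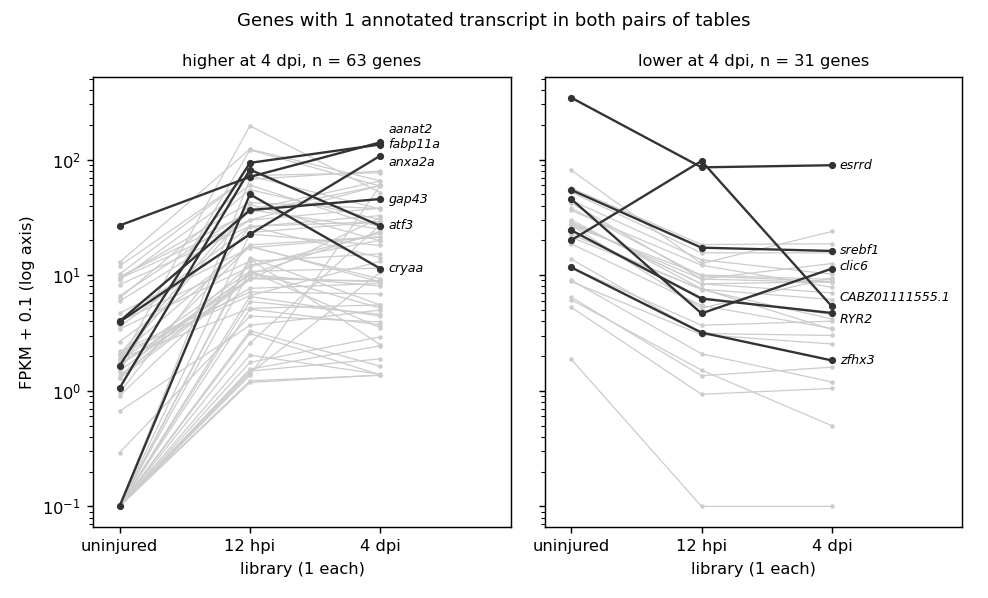
FPKM plus 0.1 on a log axis in uninjured retina, at 12 hpi and at 4 dpi for the 94 genes with 1 annotated transcript listed at both times, split into the 63 higher at 4 dpi (left) and the 31 lower at 4 dpi (right); each line is 1 gene, dark lines are named, and each time is 1 library. In the left panel *atf3* and *cryaa* are lower at 4 dpi than at 12 hpi while *anxa2a* and *aanat2* are higher, and in the right panel *CABZ01111555.1* is the line that lies above its uninjured value at 12 hpi and below it at 4 dpi.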

How the data were processed

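Retinae were homogenised in TRIzol and libraries were prepared with standard Illumina protocols; whether polyadenylated RNA was selected, the strandedness and the depth per library are not given in the sources used here, so no counting interval or detection floor could be computed. The submitters' processing notes name Bowtie2 2.2.2, TopHat2 2.1.0, Cufflinks 2.2.1 and GRCz10, and the deposited FPKM values were made by the authors with these tools. The authors filtered the tables on their own comparison, whose fold changes, test statistics, p-values and q-values were not used.

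From the deposited FPKM, log2 ratios of 4 dpi over uninjured were computed with 0.1 FPKM added (Python 3.11.15). No test was run, since each condition had 1 library. Genes at exactly 0 got no ratio. Symbols were matched to gene lists without regard to case, and group sizes came from a table of 29201 gene names that matched 806 higher and 519 lower identifiers. Genes were named by rule: 15 per direction by level, 15 by ratio and 5 at 0, with rows lacking an informative symbol counted only, then up to 6 by ratio and 4 by level in each list with at least 3 listed genes, the cell type markers, and genes the study names. Members and lists were chosen with earlier results of these data known. Alternatives were other pseudocounts, minimum levels, ratio limits, a rescaling, and limits on gene group and locus span. Tables of the cyclopamine library were not used here, and some listed genes are not reported here.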

Additional observations from a re-analysis of the deposited data

Results flagged for a closer look

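The row *CABZ01111555.1*, an uncharacterized protein-coding gene with 1 annotated transcript, was listed as higher at 12 hpi and lower at 4 dpi. It had 19.9 FPKM in uninjured retina, 97.3 FPKM at 12 hpi and 5.26 FPKM at 4 dpi. The libraries of the 2 times moved in opposite directions from a shared uninjured library, 1 library each, and the difference was not tested.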

How the results depend on the processing

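No paired analysis was possible because uninjured and 4 dpi retina were each sequenced as 1 library. Depth is unknown, and only genes the authors listed have values, so a list is described by its listed members. Rescaling the libraries to equal sums over listed rows moved the log2 ratios of high-level genes by about -1.16, and the medians became 1.37 for higher and -3.03 for lower genes. On that scale the lower side had the larger median change, whereas on the deposited scale the higher side did. Which side changed more therefore depends on the scaling. The rescaling could turn no direction, since the smallest log2 ratio among higher genes was 1.39. It is no better scale because only listed rows are held. With at least 1 FPKM in both libraries 592 genes were higher. With an absolute log2 ratio of at least 2, genes at 0 included, 972 were left and 254 were lower; with at least 3, 426 were left, 378 higher (median 3.88) and 48 lower (median -3.29). Limiting spans to 5000 to 50000 bases, added after seeing the data, left 740 genes, 504 higher and 236 lower, and turned the solute carrier median to 1.96. Another pseudocount cannot turn the sign of a ratio, but it changes the order: 11 of the 15 largest higher ratios and 12 of the 15 lower ones stayed among the first 15 with 1 FPKM.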

Other observations

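Some genes outside the lists were also far apart between the libraries, and they were picked after their values were seen. The galectin *lgals2a* had 72.9 FPKM at 4 dpi, against 1.24 FPKM in uninjured retina. The major vault protein *mvp* had 37.4 FPKM at 4 dpi, against 2.73 FPKM in uninjured retina, the lysosomal thiol reductase *ifi30* had 28.1 FPKM at 4 dpi, against 1.29 FPKM in uninjured retina, and *prdm1b*, a zinc finger factor, had 50.9 FPKM at 4 dpi, against 6.02 FPKM in uninjured retina. The executioner caspase *casp3a* had 30.6 FPKM at 4 dpi, against 5.75 FPKM in uninjured retina, and the damage-induced *gadd45gb.1* had 13.3 FPKM at 4 dpi, against 0.819 FPKM in uninjured retina. On the other side, *fkbp5*, a co-chaperone of the glucocorticoid receptor, had 27.8 FPKM at 4 dpi, against 149 FPKM in uninjured retina, and *foxo1a*, a target of insulin signalling, had 4.63 FPKM at 4 dpi, against 33.2 FPKM in uninjured retina. The largest subunit of RNA polymerase II, *polr2a*, had 7.29 FPKM at 4 dpi, against 49.1 FPKM in uninjured retina. The troponin *tnni2a.2*, of a family best known from fast muscle, had 38.6 FPKM at 4 dpi, against 143 FPKM in uninjured retina, although the markers taken as defining skeletal muscle were in neither table. Of the 893 higher genes 478 fell in a list used here, as did 183 of the 573 lower genes, so that most lower genes belong to no group described.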
